A study of Rattus norvegicus with 11 samples.

Results

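The levels of 10 dendritic cell genes, Clec9a, Xcr1, Batf3, Irf8, Flt3, Zbtb46, Itgax, Itgae, Ccr7 and Cd83, were examined in rat ileum among 24481 genes with read counts, and all 10 were found in the read counts and in the FPKM table (24205 genes). These genes were selected on results from the same libraries, so their counts and levels are given as a description. Dendritic cells take up antigen, carry it to lymph nodes and present it to T cells. The type 1 conventional dendritic cell (cDC1) is formed under BATF3 and IRF8, recognizes dead cells with CLEC9A and is drawn by the chemokine XCL1 through XCR1. In the gut wall, many dendritic cells carry the CD103 integrin encoded by Itgae, and on maturation they use CCR7 to leave for the draining lymph nodes.

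The ileum of SD (Sprague-Dawley) rats aged 6 to 8 weeks was sequenced as stranded mRNA libraries in a control group (3 libraries), a group with severe acute pancreatitis (SAP, 4 libraries) and a JZL184 group (4 libraries). SAP was made by injecting 3% sodium taurocholate into the pancreatic duct, and JZL184 is an inhibitor of MAGL, the enzyme that breaks down the endocannabinoid 2-AG. SAP rats of the JZL184 group received 10 mg/kg JZL184 intraperitoneally, control and SAP rats received the same volume of vehicle, and all were killed after a further 24 h. The sample labels name a control plasmid and oil where the protocol describes vehicle. The comparison of SAP with control shows the ileum in pancreatitis, and that of JZL184 with SAP shows it under MAGL inhibition. JZL184 was given in SAP only, so that its action in healthy ileum was not measured.

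Between 26341299 and 33847135 reads per library lay on genes. Control libraries 1 and 2 differed by a chi-square of 2.81 per gene, against 77.5 to 563 in the other pairs within a group, and were counted as 1 sample (n = 2 in the control group). SAP library 2 stood apart, with 20 reads on Y-linked genes and 7826 reads on the Xist RNA, where the other libraries had 1222 to 4665 and at most 56, although the methods describe male rats. SAP libraries 1 and 2 also stood apart from SAP libraries 3 and 4, among the 10 genes in Clec9a, Batf3, Irf8, Flt3, Zbtb46, Itgax and Cd83, and comparisons are therefore given with and without them. The labels name intestinal epithelial cells. Epithelial markers were abundant, with a summed FPKM of 7113 to 23298 for 10 genes, but 11 T cell markers summed to 55.8 to 170 and 12 macrophage markers to 111 to 447, so that RNA of other cell types of the ileum was present. In such tissue, fewer dendritic cells and less RNA per cell cannot be told apart.

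Upstream sequences are shown for Clec9a and Xcr1, the pair of genes whose levels in the JZL184 group were lowest against both other groups. They are the 250 bases before the annotated start, from RefSeq with the build GRCr8 (the deposited counts use mRatBN7.2), for Clec9a at chr4:164546073-164546322 on the plus strand and for Xcr1 at chr8:132364657-132364906 on the minus strand. Capitals mark matches to 3 motifs searched on both strands, TGANTCA (AP-1 and BATF), AANNGAAA (IRF factors) and GAGGAA (PU.1).
Clec9a: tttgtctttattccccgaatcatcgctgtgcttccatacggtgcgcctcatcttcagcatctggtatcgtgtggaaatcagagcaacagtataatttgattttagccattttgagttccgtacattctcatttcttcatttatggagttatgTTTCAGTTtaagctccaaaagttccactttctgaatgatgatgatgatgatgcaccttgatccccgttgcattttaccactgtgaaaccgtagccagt
Xcr1: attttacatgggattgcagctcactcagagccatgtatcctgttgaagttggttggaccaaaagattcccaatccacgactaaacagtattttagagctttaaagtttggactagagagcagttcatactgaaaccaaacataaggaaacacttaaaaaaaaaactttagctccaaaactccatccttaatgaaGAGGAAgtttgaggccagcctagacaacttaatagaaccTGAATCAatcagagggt

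The Clec9a window held 1 match to the IRF motif, on the opposite strand 98 bases before the start. The Xcr1 window held the AP-1 and BATF motif 17 bases and the PU.1 motif 56 bases before the start. Of 27457 promoters, 6.36% held TGANTCA, 23.0% held AANNGAAA and 23.2% held GAGGAA. Windows were found for 9 of the 10 genes. Itgax held the AP-1 and BATF motif at 56 bases, and Batf3, Zbtb46 and Itgae held the PU.1 motif at 143, 15 and 29 bases. The windows of Clec9a (40.8% GC) and Xcr1 (38.4% GC) were poorer in GC than those of Batf3 (75.2%) and Irf8 (70.4%). No match was found in the windows of Irf8, Flt3 and Cd83. Such matches describe the letters only and are not evidence of binding.

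In the control group, the FPKM of the 10 genes, which is read density per gene length and library size, ran from Batf3 at 56.1 ± 21.8 (SD, n = 2) and Irf8 at 25.3 ± 7.41 to Zbtb46 at 0.128 ± 0.018. Between them lay Cd83 at 8.03 ± 0.453, Itgae at 6.12 ± 1.57, Flt3 at 2.48 ± 0.937, Ccr7 at 1.20 ± 0.223, Clec9a at 0.338 ± 0.216, Xcr1 at 0.220 ± 0.156 and Itgax at 0.133 ± 0.025. From Clec9a downwards, neighbours in this order overlapped between libraries. The 2 transcription factors BATF3 and IRF8 are also made by cells other than dendritic cells, IRF8 by B cells and macrophages among them, and their levels were far above those of the surface receptors Clec9a and Xcr1. In the SAP group Irf8 (43.2 ± 22.3, n = 4) took the place above Batf3 (34.5 ± 11.3), and the libraries of these genes overlapped. This order came from SAP libraries 1 and 2 (Irf8 63.91 and 61, Batf3 26.19 and 23.37). In SAP libraries 3 and 4 Batf3 (44.94 and 43.41) stayed above Irf8 (25.51 and 22.43).

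**Figure D1:**
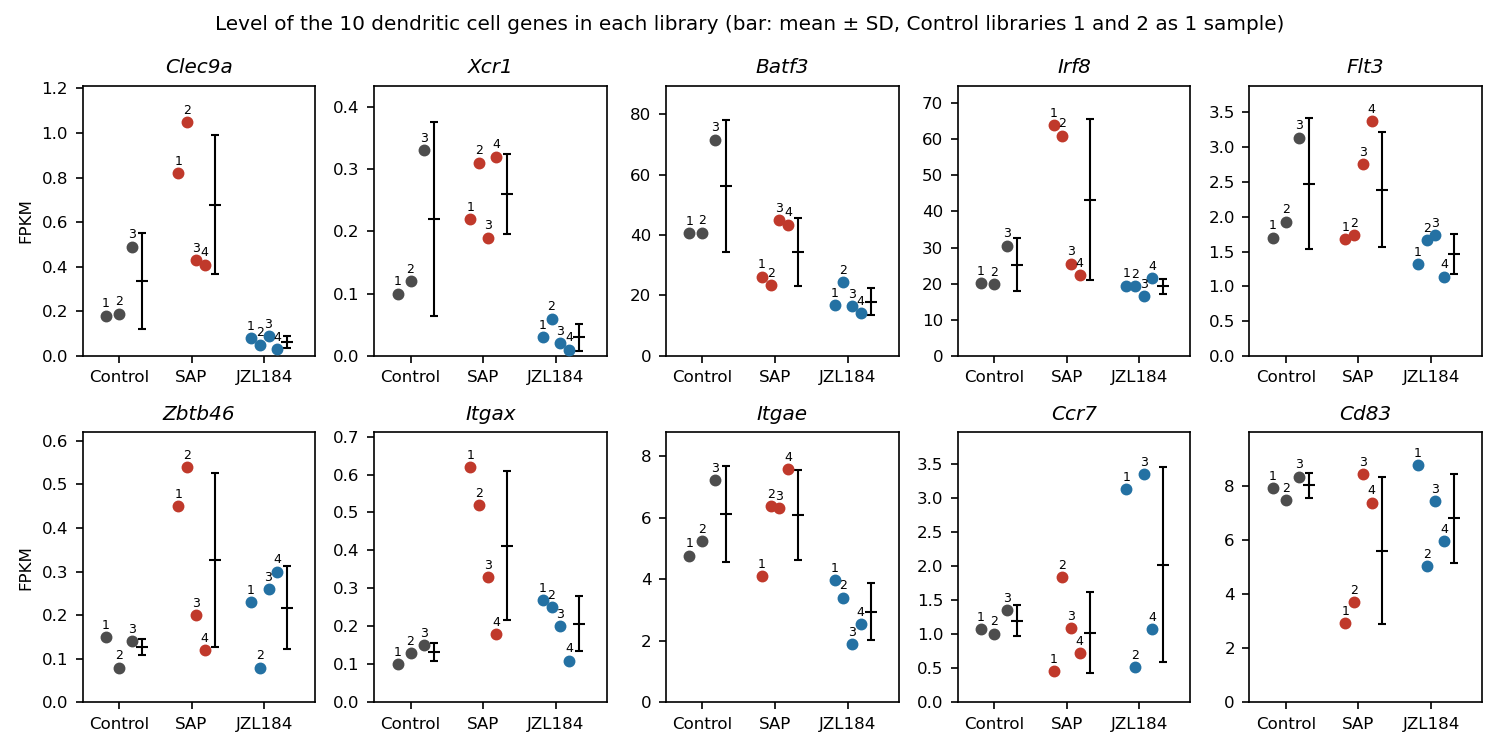
FPKM of each of the 10 genes (vertical axis, from 0) in every library of the control, SAP and JZL184 groups, with library numbers beside the points and the mean ± SD of each group at its right, control libraries 1 and 2 counting as 1 sample. Every JZL184 library lies below every other library for Clec9a (at most 0.09) and Xcr1 (at most 0.06), whereas for Ccr7 and Zbtb46 the 3 groups overlap.

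Clec9a and Xcr1, the receptors that define cDC1s, were low in every JZL184 library. The FPKM of Clec9a was 0.18, 0.19 and 0.49 in control libraries 1 to 3. It was 0.82, 1.05, 0.43 and 0.41 in SAP libraries 1 to 4. It was 0.08, 0.05, 0.09 and 0.03 in JZL184 libraries 1 to 4. The JZL184 libraries thus lay below all control and all SAP libraries, and SAP libraries 1 and 2 were the highest. Behind these values stood 22 to 66 reads in the control libraries, 55 to 146 in the SAP libraries and 4 to 12 in the JZL184 libraries. The lowest SAP count of 55 had an exact Poisson 95% interval of 41.4 to 71.6 and the highest JZL184 count of 12 one of 6.20 to 21.0, which covers counting error only.

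The FPKM of Xcr1 was 0.10, 0.12 and 0.33 in control libraries 1 to 3. It was 0.22, 0.31, 0.19 and 0.32 in the SAP libraries and 0.03, 0.06, 0.02 and 0.01 in the JZL184 libraries, in the order of their numbers. Again no JZL184 library reached the lowest control or SAP library, and the control and SAP groups overlapped. The reads numbered 37 to 133 in control libraries, 72 to 134 in SAP libraries and 4 to 23 in JZL184 libraries. The mean FPKM of the JZL184 group was 0.063 ± 0.028 (n = 4) for Clec9a and 0.030 ± 0.022 for Xcr1, against 0.678 ± 0.312 and 0.260 ± 0.065 in the SAP group.

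Batf3 and Irf8, the factors under which cDC1s form, did not share that pattern. The FPKM of Batf3 was 40.55, 40.79 and 71.56 in the control libraries. It was 26.19, 23.37, 44.94 and 43.41 in the SAP libraries, and 16.76, 24.4, 16.45 and 14.2 in the JZL184 libraries. All JZL184 libraries were below all control libraries, but JZL184 library 2 was above SAP library 2. The FPKM of Irf8 was 20.2, 19.95 and 30.55 in the control libraries, 63.91, 61, 25.51 and 22.43 in the SAP libraries and 19.49, 19.38, 16.53 and 21.51 in the JZL184 libraries. SAP libraries 1 and 2 had the highest Irf8 values of all, SAP libraries 3 and 4 lay within the range of the control libraries, and the JZL184 libraries lay just below the lowest SAP library.

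Flt3, the receptor of the growth factor on which dendritic cells depend, Zbtb46, a transcription factor of conventional dendritic cells, and Itgax, which encodes the integrin CD11c, were next examined. The FPKM of Flt3 was 1.7, 1.93 and 3.14 in the control libraries, 1.68, 1.74, 2.76 and 3.38 in the SAP libraries and 1.32, 1.66, 1.74 and 1.14 in the JZL184 libraries. The FPKM of Zbtb46 was 0.15, 0.08 and 0.14 in the control libraries, 0.45, 0.54, 0.2 and 0.12 in the SAP libraries and 0.23, 0.08, 0.26 and 0.3 in the JZL184 libraries. Both genes overlapped between the SAP and JZL184 groups, and SAP libraries 1 and 2 were the highest for Zbtb46 but the lowest of their group for Flt3. The FPKM of Itgax was 0.1, 0.13 and 0.15 in the control libraries, 0.62, 0.52, 0.33 and 0.18 in the SAP libraries and 0.27, 0.25, 0.2 and 0.11 in the JZL184 libraries. Every SAP library was above every control library for Itgax, with SAP library 4 nearest to them. CD11c is also carried by macrophages.

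The remaining genes mark gut dendritic cells and their maturation, and other lymphocytes use them too. Itgae, also on T cells within the epithelium, had an FPKM of 4.77, 5.25 and 7.23 in the control libraries, 4.1, 6.39, 6.32 and 7.58 in the SAP libraries and 3.97, 3.41, 1.89 and 2.54 in the JZL184 libraries. The JZL184 libraries were the lowest 4, with library 1 close to SAP library 1. The FPKM of Ccr7, which naive T cells and B cells also carry, was 1.08, 1.01 and 1.36 in the control libraries, 0.46, 1.84, 1.09 and 0.72 in the SAP libraries and 3.13, 0.52, 3.36 and 1.08 in the JZL184 libraries. JZL184 libraries 1 and 3 were the highest, whereas JZL184 libraries 2 and 4 lay within the SAP range, and the reads of Ccr7 numbered only 19 to 131 per library. Cd83, a surface protein of mature dendritic cells and of activated B cells, had an FPKM of 7.93, 7.49 and 8.35 in the control libraries, 2.92, 3.7, 8.45 and 7.39 in the SAP libraries and 8.78, 5.04, 7.44 and 5.96 in the JZL184 libraries. The low values of Cd83 in the SAP group came from libraries 1 and 2.

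In JZL184 compared with SAP, Clec9a was 10.8-fold lower in mean FPKM and Xcr1 8.67-fold lower. The log2 fold change of edgeR was -3.24 ± 0.46 (SE) for Clec9a and -2.92 ± 0.58 for Xcr1, the largest of the 10 genes. Their adjusted p over all genes was 0.0604 and 0.0851 in edgeR's quasi-likelihood test and 1.61e-07 and 3.78e-05 in DESeq2, with 4 of 4 JZL184 libraries below all SAP libraries. Calls needed an adjusted p below 0.05 together with a change of more than 2-fold in either direction (ratios over 2 or under 0.5). With edgeR 0 of the 10 genes were called (4 had an unadjusted p below 0.05, all lower), where 0% of all genes tested were called. With DESeq2, Clec9a and Xcr1 were called, beside 6.98% of all genes. Over 16 settings Clec9a was called in 5 and Xcr1 in 4.

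The other log2 fold changes against SAP were smaller, from -0.95 ± 0.34 for Irf8 (edgeR adjusted p = 0.171) and -0.90 ± 0.34 for Itgae (0.185) to 1.09 ± 0.60 for Ccr7 (0.308). Batf3 gave -0.79 ± 0.36, Itgax -0.77 ± 0.40, Flt3 -0.58 ± 0.36, Zbtb46 -0.40 ± 0.52 and Cd83 0.38 ± 0.39, and none of these 8 genes was called under any of 16 settings. In normalized counts the groups did not overlap for 3 lower genes (Clec9a, Xcr1 and Irf8), where 5.41% of all tested genes were lower without overlap and 6.32% higher. Without SAP libraries 1 and 2, Clec9a gave -2.70 (edgeR adjusted p = 0.171) and Xcr1 -3.00 (0.180). Without these libraries Irf8 gave -0.26, Zbtb46 0.51 and Cd83 -0.18, so that the difference in Irf8 rested on SAP libraries 1 and 2. Without SAP library 2 alone, Clec9a gave -2.99 and Xcr1 -2.87, and without JZL184 library 2 Xcr1 gave -3.61. Without JZL184 library 1, the edgeR test called Clec9a and Xcr1, but this fit also called more of all genes than any other that left out 1 library.

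**Figure D2:**
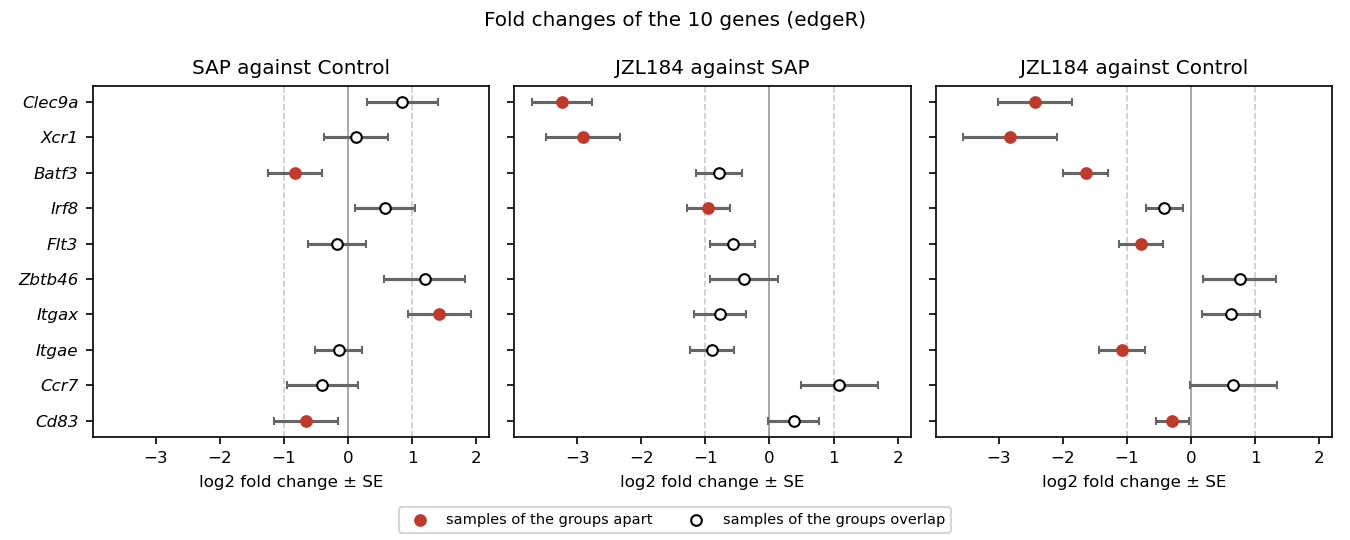
Log2 fold changes ± SE from edgeR (horizontal axis) of the 10 genes in the 3 comparisons, filled points for genes whose samples were separate between groups in normalized counts and dashed lines at a fold change of 2 and 0.5. Clec9a and Xcr1 lie farthest to the left in both comparisons of JZL184, at -3.24 and -2.92 against SAP, and no gene lies as far from 0 in SAP compared with control.

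In SAP compared with control, the 10 genes showed no common direction, with 5 above and 5 below 0 and a median log2 fold change of -0.01, where the median of all genes was 0.06. Itgax gave 1.43 ± 0.49 (edgeR adjusted p = 0.459), Zbtb46 1.20 ± 0.63, Clec9a 0.85 ± 0.55, Irf8 0.58 ± 0.47 and Xcr1 0.13 ± 0.50. Batf3 gave -0.83 ± 0.42, Cd83 -0.65 ± 0.50, Ccr7 -0.40 ± 0.55, Flt3 -0.17 ± 0.45 and Itgae -0.15 ± 0.36. None was called by edgeR, as were 0% of all genes (Itgax had an unadjusted p of 0.0208), and none by DESeq2, which called 1.23% of all genes. When control libraries 1 and 2 were taken as separate samples although they differed so little, DESeq2 called Itgax (adjusted p = 0.0159). This setting also called a larger share of all genes than 1.23%, and with the 2 libraries summed the DESeq2 adjusted p of Itgax was 0.168. On normalized counts the samples were fully separate for 1 higher gene, Itgax (background 10.1% of genes), and for 2 lower genes, Batf3 and Cd83 (13%). Without SAP libraries 1 and 2, Clec9a gave 0.31, Zbtb46 0.27 and Itgax 0.87, and Irf8 gave -0.14. Batf3 gave -0.40 and Cd83 -0.09 without them.

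In JZL184 compared with control, which shares its JZL184 libraries with the comparison above, Xcr1 gave a log2 fold change of -2.82 ± 0.73 (edgeR adjusted p = 0.0731), Clec9a -2.43 ± 0.58 (0.0640) and Batf3 -1.64 ± 0.35 (0.0526). Their mean FPKM was 7.33-fold, 5.40-fold and 3.13-fold lower than in control ileum. When single samples were left out, the log2 fold change of Xcr1 ran from -3.52 (without JZL184 library 2) to -1.91 (without control library 3), that of Clec9a from -2.95 (without control libraries 1 and 2) to -1.66 (without control library 3) and that of Batf3 from -1.96 to -1.27 (the same control samples). Itgae gave -1.07 ± 0.36 (0.116), Flt3 -0.77 ± 0.34, Irf8 -0.41 ± 0.28 and Cd83 -0.29 ± 0.26. Above 0 lay Zbtb46 with 0.76 ± 0.57, Ccr7 with 0.66 ± 0.68 and Itgax with 0.62 ± 0.45. edgeR called 0 of the 10 genes against 2.16% of all genes, and 4 had an unadjusted p below 0.05, all lower. DESeq2 called Clec9a, Xcr1 and Batf3 against 10.8% of all genes. In normalized counts 6 genes were lower without overlap (Clec9a, Xcr1, Batf3, Flt3, Itgae and Cd83), where 19.5% of all genes were lower and 18.9% higher in this way. With FPKM in single libraries, which is scaled differently, Cd83 and Flt3 overlapped here, as did Batf3 and Cd83 in SAP compared with control, while Itgae did not overlap between JZL184 and SAP. Over 15 settings, Clec9a and Batf3 were called in 8, Xcr1 in 6 and Itgae in 2. Some of these settings took control libraries 1 and 2 as separate samples although they differed so little, in edgeR, in DESeq2 and with the replicate block. Each of those called a larger share of all genes than 2.16%, so that this tally does not count independent support.

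The level of Ptprc, which encodes the leukocyte protein CD45, varied widely, from 2.55 to 7.84 FPKM in the control libraries, 4.86 to 32.03 in the SAP libraries and 2.79 to 24.19 in the JZL184 libraries. Ptprc did not always follow the lymphocyte markers. SAP library 2 (Ptprc 32.03) had a summed FPKM of 112 for T cell and 46.6 for B cell markers. Control library 1 (Ptprc 2.62) had 149 and 109, and JZL184 library 1 (Ptprc 24.19) had 134 and 159. A ratio to Ptprc is thus not a measured level per leukocyte. Relative to Ptprc, Clec9a stood at 0.033 to 0.084 in the SAP libraries and 0.0033 to 0.018 in the JZL184 libraries, without overlap. For Xcr1 these ratios were 0.0097 to 0.066 and 0.0012 to 0.022, and JZL184 library 2 lay within the SAP range. For Batf3 they were 0.73 to 8.93 and 0.69 to 8.75, and for Irf8 1.90 to 4.62 and 0.81 to 6.95, so that both genes overlapped. Relative to Zbtb46, a choice made after the values were seen, Clec9a stood at 1.20 to 3.50 in the control libraries, 1.82 to 3.42 in the SAP libraries and 0.10 to 0.63 in the JZL184 libraries. Relative to Flt3, it stood at 0.098 to 0.16, 0.12 to 0.60 and 0.026 to 0.061 in these groups. Xcr1 relative to Flt3 lay at 0.059 to 0.11, 0.069 to 0.18 and 0.0088 to 0.036. Xcr1 relative to Zbtb46 lay at 0.67 to 2.36, 0.49 to 2.67 and 0.033 to 0.75, so that the JZL184 libraries overlapped both other groups. The other 3 of these ratios did not overlap between the JZL184 libraries and the rest, and Zbtb46 itself was counted on few reads.

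**Figure D3:**
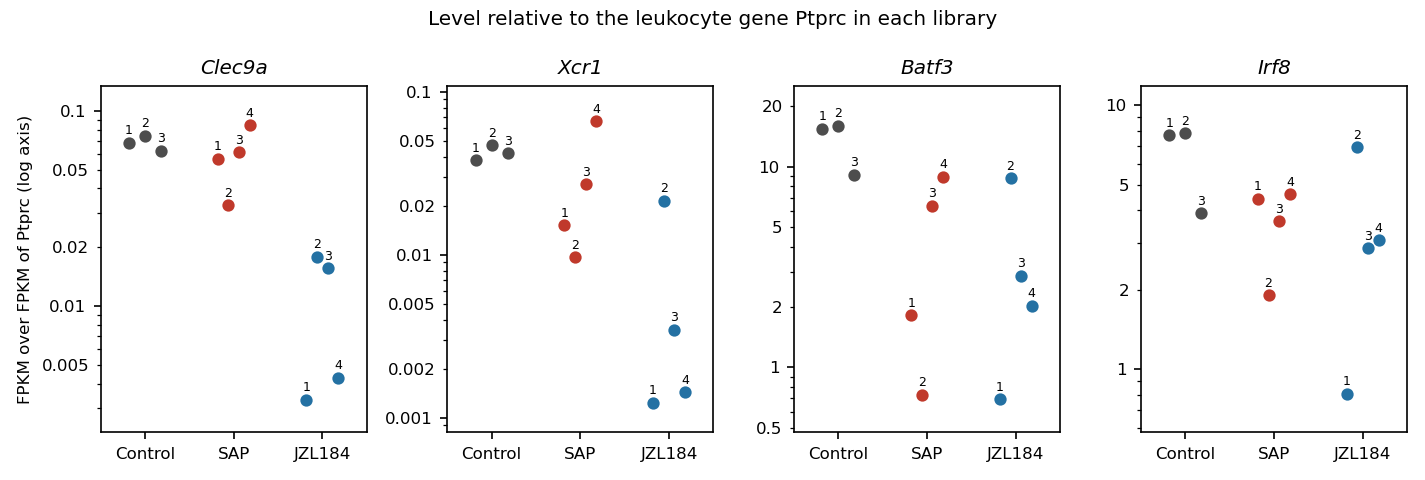
FPKM of Clec9a, Xcr1, Batf3 and Irf8 divided by the FPKM of Ptprc (vertical log axis) in each library of the 3 groups, with library numbers. The JZL184 libraries lie below all others for Clec9a, at 0.0033 to 0.018, and overlap the SAP libraries for the other 3 genes.

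Lists of related genes show what else of the dendritic cell program was measured. Of 12 further cDC1 genes, 11 were tested and 0 were called by edgeR in any comparison. Between JZL184 and SAP their median log2 fold change was -0.42, against -0.05 over all genes, with 3 lower and 1 higher at an unadjusted p below 0.05 (11.1% and 10.3% of all genes). Without SAP libraries 1 and 2 this median was -0.37. Among them Ppt1, a lysosomal enzyme, gave -1.41 ± 0.33 (edgeR adjusted p = 0.0909) and Nfil3, a transcription factor needed for cDC1s, 1.24 ± 0.40 (0.146). Wdfy4, which cDC1s need for cross-presentation, gave -0.71 ± 0.32. The cDC2 list, with 10 of 12 genes tested, had a median of -0.24, and the plasmacytoid list, with 8 of 10 tested, one of -0.24. Without SAP libraries 1 and 2 these medians were -0.0035 and -0.04. Cd209a of the cDC2 list was at 0 FPKM in 10 of 11 libraries, and Siglech of the plasmacytoid list was at 0 in 3. The median of the 10 genes described here was -0.78 in that comparison and -0.64 without SAP libraries 1 and 2.

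Genes of dendritic cell maturation and migration lay mostly above 0 in this comparison. As many as 14 of 15 tested genes were positive, with a median of 1.12, and 10 were higher at an unadjusted p below 0.05, as were 10.3% of all genes tested. The summed FPKM of the list was 65.5, 62.2, 99.2 and 91.1 in SAP libraries 1 to 4 and 95.1 to 124 in the JZL184 libraries. In the control libraries it was 108 to 124, so that the JZL184 sum did not exceed that of control ileum. Much of the sum came from Relb, Nfkb2, Ccl17 and Marcksl1. These genes gave log2 fold changes of 0.11, 0.94, 0.47 and 0.49 in JZL184 compared with SAP. Without SAP libraries 1 and 2, 11 of the 15 genes were positive with a median of 0.82, and 7 were higher and 1 lower at an unadjusted p below 0.05 (9.48% and 7.90% of all genes). With all libraries edgeR called 0 of the list (0% of all genes) and DESeq2 called 6 (6.98% of all genes), among them Il15, a cytokine of T and NK cells, at 1.76 ± 0.40 (edgeR adjusted p = 0.0856) and Il12b, a subunit of IL-12, at 2.25 ± 0.53 (0.0909). The costimulatory genes Cd80 and Cd40 gave 1.63 ± 0.40 and 1.89 ± 0.54, and Fscn1, an actin-bundling protein of mature dendritic cells, 1.12 ± 0.32. In SAP compared with control the median of this list was -0.35 (-0.08 without SAP libraries 1 and 2), and DESeq2 called Ccl22 at -2.66 and Il12b at -2.23 as lower (1.23% of all genes in either direction). Both comparisons share the SAP libraries. In JZL184 compared with control, 9 of the 15 genes were positive, with a median of 0.43. At an unadjusted p below 0.05, 6 were higher and 2 lower (13.8% and 12.5% of all genes). There Il15 and Cd80 gave 1.38 and 2.09, but Il12b gave -0.01, near its control level, and Ccl22 -1.33. Ccr7 and Cd83, the maturation genes among the 10, lay above 0 in JZL184 compared with SAP as well, but without a call.

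Of the ligands, Flt3lg, which encodes the growth factor read by FLT3, had an FPKM of 7.22 to 7.55 in the control libraries, 2.80 to 7.62 in the SAP libraries and 2.60 to 5.86 in the JZL184 libraries. Xcl1, the ligand of XCR1, lay at 0.75 to 1.99, 0.44 to 1.24 and 0.25 to 0.76, on 111 reads in all. Between JZL184 and control, Flt3lg gave -0.95 ± 0.36 (edgeR adjusted p = 0.147) and Xcl1 -1.65 ± 0.61 (0.140). Xcl1 was not tested between JZL184 and SAP because of its few reads. Csf2, which encodes the growth factor GM-CSF, gave 2.03 ± 0.47 in JZL184 compared with SAP (edgeR adjusted p = 0.0902, DESeq2 0.00233).

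**Figure D4:**
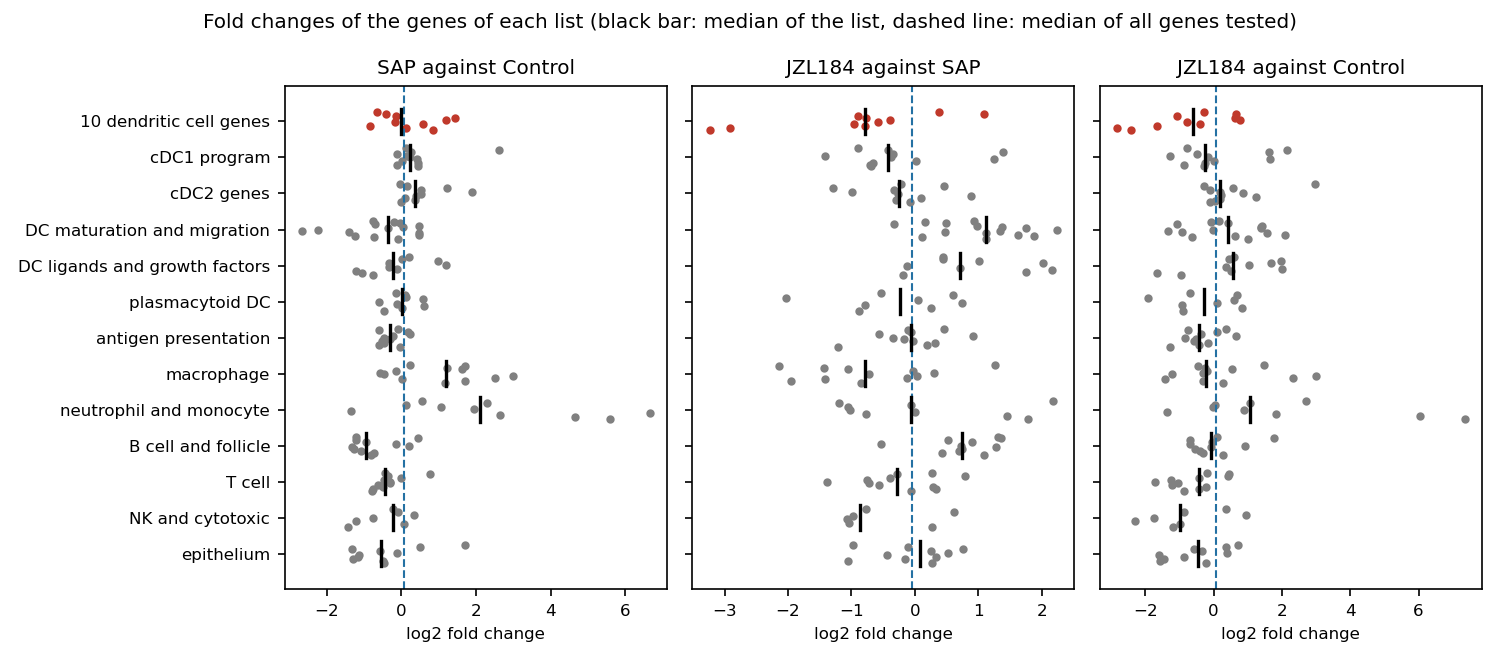
Log2 fold changes from edgeR (horizontal axis) of the genes of each list in the 3 comparisons, with a black bar at the median of each list and a dashed line at the median of all genes tested. In JZL184 compared with SAP the 10 dendritic cell genes have a median of -0.78 and the maturation and migration list one of 1.12.

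Markers of other cells that carry some of these genes also differed between the groups. The summed FPKM of 11 T cell markers was 146 to 170 in the control libraries, 55.8 to 167 in the SAP libraries and 102 to 134 in the JZL184 libraries. That of 8 NK and cytotoxic genes was 118 to 152, 51.1 to 115 and 29.2 to 44.9, without overlap. Most of it came from 2 granzyme genes of cytotoxic lymphocytes. Gzma lay at 79.8 to 99.7, 33.2 to 84.5 and 12.7 to 33.9, and Gzmb at 31.8 to 44.5, 14.1 to 22.8 and 7.01 to 10.2. In JZL184 compared with SAP, 4 of 6 tested genes of this list lay below 0 and 2 above. The summed FPKM of 12 macrophage markers was 352 to 406, 175 to 447 and 111 to 318. Much of it came from C1qa, at 221 to 260, 95.6 to 266 and 55.6 to 138. In SAP compared with control, however, 9 of these 12 genes lay above 0, with a median log2 fold change of 1.19. The summed FPKM of 11 B cell and follicle markers was 95.1 to 111, 28.7 to 88.2 and 68.9 to 159, with the highest value in JZL184 library 1 (Ccr7 3.13 FPKM) and the lowest of that group in JZL184 library 3 (Ccr7 3.36 FPKM). The part of these cells in the levels of Itgae, Irf8, Itgax, Ccr7 and Cd83 was not tested.

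The genes whose normalized counts most resembled those of Clec9a were sought among 12862 genes over the 10 samples, as a description across samples that share their groups. Among the most alike were LOC100359600 (Pearson's r = 0.97, Spearman's rho = 0.90), Zfp69 (0.95 and 0.92) and Tbx3 (0.94 and 0.90). The FPKM of Tbx3, a transcription factor gene, was 4.43 to 5.08 in the control libraries, 4.52 to 7.87 in the SAP libraries and 1.6 to 2.89 in the JZL184 libraries. Among the 10 genes Xcr1 was nearest to Clec9a with r = 0.89 (rank 54), followed by Irf8 with 0.75 (rank 574), Itgae with 0.62, Itgax with 0.49, Batf3 with 0.48, Flt3 with 0.42 and Zbtb46 with 0.23. For Ccr7 r was -0.32 (rho = -0.08) and for Cd83 -0.43 (rho = -0.16).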

How the data were processed

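Libraries of rat ileum (3 control, 4 SAP and 4 JZL184) were grouped by the labels. The authors trimmed reads with FASTX-Toolkit, mapped them with HISAT2 onto the mRatBN7.2 assembly and deposited a raw count per gene of reads with 1 alignment. They also deposited FPKM with 2 decimals, so that values of Clec9a and Xcr1 are coarse. Neither the counter nor the gene models are named in the sources used here. Reads of control libraries 1 and 2 were summed and their FPKM averaged. Between 26341299 and 33847135 reads per library lay on genes. Where nothing names separate animals, p-values measure the spread between these samples.

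Pairs of groups were compared in edgeR 4.0.16 by its quasi-likelihood test (run in R 4.3.3), with TMM scaling and its default filter on low counts (minimum count 10), with Benjamini-Hochberg adjustment over all tested genes. Calls needed an adjusted p below 0.05 and a ratio over 2 or under 0.5. The counts are of raw reads, so the test fits them, and DESeq2 1.42.0, the tool of the study, was run beside it. In simulated counts with the spread of the libraries, edgeR recovered 39 (SAP against control), 118 (JZL184 against SAP) and 84 (JZL184 against control) of 200 genes changed 4-fold. The changed genes were drawn only from genes with higher mean normalized counts than Clec9a, Xcr1, Zbtb46 and Ccr7. Recovery at the low counts of these 4 genes was therefore not measured. Other settings were the voom method of limma 3.58.1 with quality weights per sample, size factors from DESeq2, no filter, no fold threshold, all groups in 1 fit, a replicate block, separate control libraries, and leaving out libraries.

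The 10 genes and the 12 lists were chosen with earlier results of these data known. Named genes are the 10 genes, the genes of each list with the smallest p or a call where a result turned on them, the 5 genes most like Clec9a, of which some are not reported here, and Ptprc. Wdfy4, Cd80, Cd40, Fscn1, Cd209a, Siglech, Flt3lg, Xcl1 and Csf2 were also named after their values were seen. The lists covered cDC1, cDC2, maturation, ligands, plasmacytoid cells, antigen presentation, macrophages, neutrophils and monocytes, B cells, T cells, NK cells and epithelium. Likeness was measured over genes averaging 50 or more reads. Promoter sequences were taken from RefSeq (GRCr8).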

Additional observations from a re-analysis of the deposited data

How the results depend on the processing

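The spread between samples, a control group of only 2 samples and the few reads of Clec9a and Xcr1 at this depth limit these comparisons. Of 440 alternative values of the log2 fold changes of the 10 genes, 396 kept their direction and their side of the threshold, 34 passed it in place of missing it, and 10 turned sign, and the cause of these was not tested. When single libraries were left out in SAP compared with control, Xcr1 ran from -0.43 (without control libraries 1 and 2) to 1.03 and was -0.058 without SAP library 4, Flt3 ran from -0.47 (-0.46 without SAP library 4) to 0.19 (without control library 3), and Itgae from -0.33 to 0.058 (without control library 3), with 0.03 without SAP library 1. Without SAP libraries 1 and 2 they were -0.14 for Irf8, 0.27 for Flt3 and 0.13 for Itgae, and in JZL184 compared with SAP 0.51 for Zbtb46 and -0.18 for Cd83. A pseudocount of 1 in place of 0.1 moved 5 of the differences of mean log2 FPKM of the 10 genes over the 3 comparisons. All 5 were of genes below 1 FPKM and kept the same sign.

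The count of all DEGs in SAP compared with control was 0 by edgeR, where 1457 genes had an unadjusted p below 0.05. It was 208 with DESeq2, 14 with limma-voom and likewise without a filter, 4 with all groups in 1 fit, 33 with separate control libraries, 1434 with DESeq2 and separate control libraries (a setting chosen after seeing the data), 74 without SAP libraries 1 and 2, and 0 to 3 when single libraries were left out. The paper, which used DESeq2, reports 1434 genes for this comparison and 1283 for JZL184 compared with SAP. Of the 10 genes, 1 was called in SAP compared with control, only by DESeq2 with separate control libraries. In JZL184 compared with SAP the count was 0 by edgeR, where 3267 had an unadjusted p below 0.05, and it was 1283 with DESeq2, 699 with limma-voom, 27 without a filter, 207 with all groups in 1 fit and 0 to 655 when single libraries were left out, the highest without JZL184 library 1. The 10 genes gave 2 calls with DESeq2, limma-voom and all groups in 1 fit, 1 without a filter and 0 to 2 when single libraries were left out. In JZL184 compared with control the count was 343 with edgeR, 1899 with DESeq2, 2906 with limma-voom, 929 without a filter, 2800 with separate control libraries, 3498 with DESeq2 and separate control libraries, and 0 to 1867 when single libraries were left out. It was 0 without control libraries 1 and 2, 1 without control library 3, 25, 860 and 78 without JZL184 library 2, 3 or 4, and 1867 without JZL184 library 1. The 10 genes gave 3 calls with DESeq2, 4 with limma-voom, 3 without a filter, 2 with all groups in 1 fit, 3 with separate control libraries, 4 with DESeq2 and separate control libraries, and 0 to 2 when single libraries were left out.

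No pairing of the libraries by replicate number is described in the sources used here. Libraries of the same number in the JZL184 and SAP groups deviated with correlations of 0.12, -0.45, -0.01 and -0.10. Such correlations cannot exclude a pairing. With the replicate block, 0 genes were called in JZL184 compared with SAP. With the replicate block and separate control libraries, 1 gene was called in SAP compared with control and 1488 genes in JZL184 compared with control, where 1 of the 10 genes (Batf3) was called.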

Other observations

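Among the lists of other cells, 4 of the 126 list genes tested (3.17%) passed the edgeR test in JZL184 compared with control, where 2.16% of all genes passed. The scavenger receptor genes Cd163 and Mrc1, both of macrophages, rose by a log2 fold change of 2.99 (adjusted p = 0.0398) and 2.34 (0.0454). They gave 2.99 and 2.497 in SAP compared with control, where DESeq2 called both (adjusted p = 1.14e-04 and 1.76e-04). Between JZL184 and SAP they gave 0.03 and -0.13. Of the 12 macrophage genes, 7 lay below 0 in JZL184 compared with control, with a median of -0.21. In that comparison Cxcl13, a chemokine that draws B cells into follicles, rose by 1.77 (0.0476). Gzmb, a granzyme of cytotoxic lymphocytes, fell by 2.30 on the log2 scale (0.0135). In SAP compared with control and in JZL184 compared with SAP, edgeR called 0 genes of the 12 lists.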
